A study of Mus musculus with 18 samples.

Results

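MHC class II molecules present peptides to CD4 T cells, and their genes are followed here through the lacrimal gland (LG) of a mouse strain with chronic gland inflammation and of a control strain. The genes were chosen by name for their role. They number 10 of the 54232 genes in the count table: the chains H2-Aa, H2-Ab1, H2-Eb1 and H2-Ea-ps, the peptide loading genes Cd74, H2-DMa, H2-DMb1, H2-DMb2 and H2-Oa, and the regulator Ciita.

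The study sequenced RNA from whole LGs of 18 male mice, 1 library per mouse, with 3 mice in each group. BALB/cJ mice (BALB/c) served as controls at 2, 4 and 6 months (2M, 4M, 6M). NOD.B10Sn-H2b/J mice (NOD.H-2b) of the same ages were the model of Sjögren's syndrome. In the latter strain the MHC segment of the NOD background is replaced by that of C57BL/10SnJ, the H2b haplotype, while BALB/c carries H2d. No treatment was given to either strain, and the strains differ across the genome as well as at H2.

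As background, an alpha and a beta chain form each class II molecule: H2-Aa with H2-Ab1 (I-A), and H2-Ea with H2-Eb1 (I-E). The invariant chain Cd74 guides new molecules to endosomes, H2-DM exchanges its remnant for peptides, and H2-O, found mainly in B cells, restrains H2-DM. Ciita is the coactivator that class II promoters need, it is present in B cells and dendritic cells, and interferon gamma induces it in many other cells, epithelium included.

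Depth ran from 49480781 to 103936830 counts per mouse. The highest total was that of BALB/c 6M replicate 1, and the next was 67138830. Levels are given as CPM (library size scaled counts, on 1 scale for all 18 mice), and as TPM, which also corrects for gene length, where genes are compared with each other. A gene was called when edgeR gave a false discovery rate (FDR) under 0.05 over all genes tested and the fold change was at least 2.

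Of the 10 genes, 8 lie among 10 class II genes on chromosome 17 between 34092340 and 34344645 (GRCm38), with H2-Ob and H2-Eb2 as the rest. Ciita lies on chromosome 16 from 10480059 to 10528418 and Cd74 on chromosome 18 from 60803848 to 60812652, so these genes are outside H2. The reference genome is of the H2b haplotype. For genes within H2, a strain difference in expression and a difference in how reads of each haplotype align cannot be told apart, whereas ages within a strain share their haplotype.

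The first place in the order of levels was the same in all groups. Cd74 had the highest mean TPM of the 10 genes in each of the 6 groups, from 25.9 ± 4.05 in BALB/c at 2M to 395 ± 161 in NOD.H-2b mice at 6M (SD, n = 3). In BALB/c H2-Ea-ps came next at every age, with 10.2 ± 1.02 TPM at 2M. Behind it H2-Eb1, H2-Aa and H2-Ab1 lay between 5.87 and 6.41, and their spreads between mice overlapped. In NOD.H-2b H2-Ea-ps had no counts and H2-Eb1 came next, with 114 ± 49.8 TPM (mean and SD) at 6M. H2-Ab1 at 82.2 and H2-Aa at 81.4 overlapped with H2-Eb1 and each other in their spread between mice. All genes were measured in the same mice, so such an overlap does not settle their order within a mouse. H2-DMb2 moved up in the order, from rank 9 in BALB/c at every age and rank 8 in NOD.H-2b mice at 2M to rank 5 in these mice at 4M and 6M, where its mean TPM was 10.8 and 19.6. At 6M in NOD.H-2b H2-DMb2 and H2-DMb1, at 11.1 TPM, overlapped in their spread between mice. Within each of these mice H2-DMb2 had more counts than H2-DMb1, with log2 ratios of 0.93, 0.71 and 0.90.

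The comparison of the strains at each age asks how the class II genes of inflamed and control glands differ. At 2M 8 of the 10 genes were higher in NOD.H-2b, where 12.0% of the 17200 genes tested were called higher, and 1 was lower, where 3.76% were. At 4M 9 were higher, against 15.6% of 17722 genes, and 1 was lower, against 4.72%. At 6M the counts were again 9 higher and 1 lower, against 18.8% and 6.03% of 17750 genes. At 2M, 4M and 6M the 10 genes had a median log2 fold change of 1.94, 2.50 and 3.45, while that of all genes tested was 0.01, 0.00 and -0.00. These medians were the same with H2-Ea-ps, which NOD.H-2b lacked, set to its bound. All 10 genes passed the filter on low counts at each age, but H2-Oa did so through its NOD.H-2b counts and H2-Ea-ps through its BALB/c counts, so both had to differ once they were tested. In bulk tissue fewer cells of a type and less RNA per cell cannot be told apart, and the same holds for more.

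Cd74, the invariant chain and the most abundant of the 10, measured 53.3, 56.2 and 42.0 CPM in the BALB/c mice at 2M and 106, 206 and 164 CPM in the NOD.H-2b mice. At 4M it measured 71.2, 64.7 and 125 CPM in BALB/c, against 566, 385 and 372 CPM in NOD.H-2b mice. At 6M the values were 54.1, 65.5 and 55.6 CPM in BALB/c, against 711, 407 and 537 CPM in NOD.H-2b. Every NOD.H-2b mouse lay above every BALB/c mouse of its age, and BALB/c 4M replicate 3 stood above the other BALB/c mice. By edgeR Cd74 differed by a log2 of 1.70 ± 0.31 (SE) at 2M, 2.35 ± 0.34 at 4M and 3.27 ± 0.20 at 6M, with adjusted p = 0.0138, 0.00428 and 2.94e-06. Since Cd74 is not an H2 gene, its reads do not depend on the H2 haplotype.

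Ciita, the regulator and also outside H2, measured 3.17, 4.26 and 3.17 CPM in BALB/c, against 9.07, 22.2 and 15.5 CPM in NOD.H-2b mice at 2M. At 4M the mice had 4.48, 3.62 and 10.0 CPM in BALB/c, against 83.9, 56.9 and 46.2 CPM in NOD.H-2b. By 6M BALB/c mice had 3.05, 3.43 and 3.65 CPM, and NOD.H-2b mice 94.4, 47.3 and 65.7 CPM. The strains did not overlap at any age, and NOD.H-2b replicate 1 was the lowest of its group at 2M. Log2 fold changes of Ciita were 2.19 ± 0.39 (SE, edgeR) at 2M, 3.36 ± 0.51 at 4M and 4.40 ± 0.29 at 6M, with adjusted p = 0.0104, 0.00641 and 3.41e-05.

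Among the chains, H2-Aa (I-A alpha) measured 25.9, 30.9 and 22.6 CPM in BALB/c, against 50.8, 108 and 75.9 CPM in NOD.H-2b mice at 2M. At 6M H2-Aa stood at 30.0, 36.8 and 27.7 CPM in BALB/c, against 334, 190 and 247 CPM in NOD.H-2b. H2-Aa did not overlap between strains at 2M, 4M or 6M, and it was the most abundant chain by CPM. Its partner H2-Ab1 (I-A beta) measured 17.0, 19.5 and 16.1 CPM in BALB/c, against 39.0, 73.0 and 57.2 CPM in NOD.H-2b mice at 2M. By 6M H2-Ab1 was at 17.7, 20.9 and 16.0 CPM in BALB/c, against 225, 127 and 174 CPM in NOD.H-2b. The pair rose side by side, with log2 fold changes of 1.61 ± 0.34 (H2-Aa) and 1.73 ± 0.27 (H2-Ab1) at 2M, 2.16 ± 0.34 and 2.24 ± 0.35 at 4M, and 3.06 ± 0.22 and 3.30 ± 0.22 at 6M (SE, edgeR). The beta chain of I-E, H2-Eb1, measured 14.1, 16.3 and 13.1 CPM in BALB/c, against 41.5, 82.9 and 63.0 CPM in NOD.H-2b mice at 2M. At 6M H2-Eb1 was at 14.8, 17.4 and 14.6 CPM in BALB/c, against 243, 130 and 181 CPM in NOD.H-2b. No mouse overlapped, and the log2 fold change of H2-Eb1 at 2M, 4M and 6M was 2.15, 2.51 and 3.60.

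Without BALB/c 2M replicate 3 the count called higher at 2M was 5 in place of 8, and Cd74 (adjusted p = 0.0527), Ciita (0.0569) and H2-Aa (0.0823) were no longer called by edgeR. H2-Aa also missed the threshold at 2M without BALB/c 2M replicate 1 (adjusted p = 0.0768), BALB/c 2M replicate 2 (0.0565) or NOD.H-2b 2M replicate 3 (0.0652), with log2 fold changes between 1.50 and 1.73. At 4M and 6M the counts higher were 9 whichever mouse was left out.

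H2-Ea-ps, the I-E alpha chain gene, went the other way. It measured 12.6, 13.3 and 11.1 CPM in BALB/c at 2M, 14.8, 16.4 and 31.7 CPM at 4M, and 13.0, 14.5 and 11.2 CPM at 6M. In all 9 NOD.H-2b mice it had 0 counts. As background, H2b mice carry a deletion at the promoter of this gene and make no I-E, and the annotation calls the gene a polymorphic pseudogene. With a floor of 3 counts per library, its deficit in the NOD.H-2b strain was 260-fold or more at 2M, 414-fold or more at 4M and 268-fold or more at 6M. H2-Eb1, the chain that would pair with it, was thus higher in the strain where H2-Ea-ps was at 0.

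**Figure D1:**
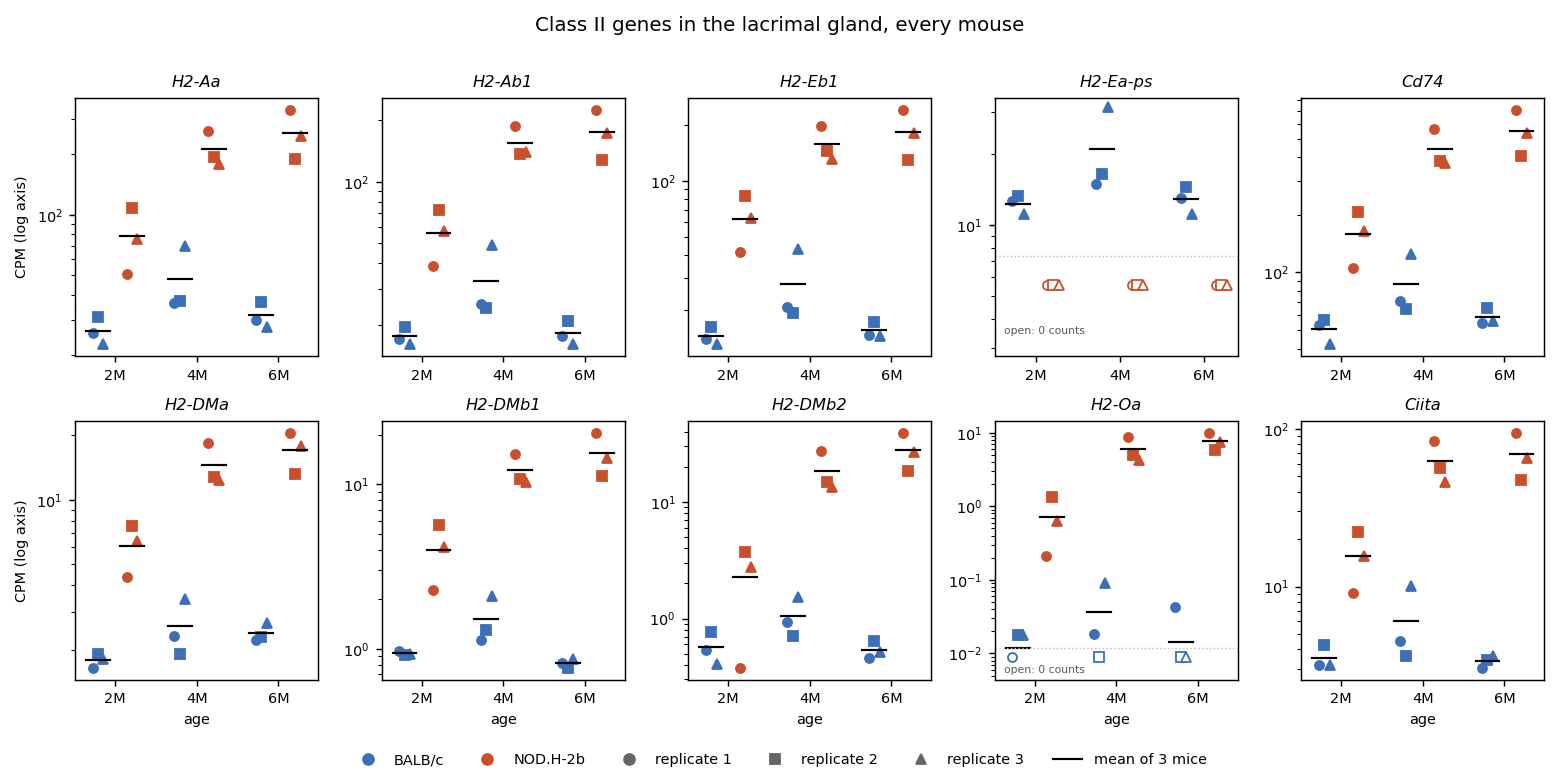
Level of each of the 10 class II genes in every mouse, in CPM on a log axis, by age, with BALB/c in blue, NOD.H-2b in orange, a marker shape for each replicate number and a bar at the mean of 3 mice; open symbols below the dotted line are mice with 0 counts. Cd74 lies between 42.0 and 125 CPM in BALB/c, against between 106 and 711 CPM in NOD.H-2b, and H2-Ea-ps is at 0 in all 9 NOD.H-2b mice.

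The loading genes H2-DMa and H2-DMb1 encode the H2-DM heterodimer with H2-DMb2, a second beta chain gene. H2-DMa measured 1.64, 1.90 and 1.80 CPM in BALB/c, against 4.35, 7.51 and 6.45 CPM in NOD.H-2b mice at 2M, and 2.22, 2.28 and 2.67 CPM against 20.5, 13.1 and 17.8 CPM at 6M. For H2-DMb1 the 2M values were 0.975, 0.916 and 0.935 CPM in BALB/c, against 2.28, 5.62 and 4.14 CPM in NOD.H-2b, and those at 6M were 0.816, 0.767 and 0.865 CPM and 20.5, 11.3 and 14.5 CPM. Neither gene overlapped between strains at any age. Their log2 fold changes were 1.82 (H2-DMa) and 2.14 (H2-DMb1) at 2M, 2.50 and 3.00 at 4M, and 2.88 and 4.27 at 6M, with the largest adjusted p = 0.000549 by edgeR.

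In H2-DMb2 the strains overlapped at 2M. At 2M it measured 0.535, 0.772 and 0.406 CPM in BALB/c, against 0.378, 3.73 and 2.77 CPM in NOD.H-2b, so that NOD.H-2b replicate 1 lay below all BALB/c mice and the others above. At 4M the values were 0.940, 0.711 and 1.54 CPM in BALB/c, against 27.6, 14.9 and 13.3 CPM in NOD.H-2b mice. At 6M they were 0.462, 0.639 and 0.514 CPM in BALB/c, against 39.1, 18.5 and 27.1 CPM in NOD.H-2b, with no overlap at either age. The log2 fold change of H2-DMb2 was 2.05 ± 0.86 (SE) at 2M, which missed the threshold (adjusted p = 0.123), 4.11 ± 0.44 at 4M and 5.77 ± 0.35 at 6M (adjusted p = 0.000893 and 1.27e-05, edgeR). Without NOD.H-2b 2M replicate 1 it was called at 2M as well, at 2.54 ± 0.28 (adjusted p = 1.5e-05). H2-DMb1 and H2-DMb2 are paralogs of like sequence, and how reads that match both were counted is not stated.

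H2-Oa, the alpha chain of H2-O, was close to absent from BALB/c. It measured 0, 0.0180 and 0.0176 CPM in BALB/c, against 0.214, 1.32 and 0.629 CPM in NOD.H-2b mice at 2M. At 4M the values were 0.0184, 0 and 0.0895 CPM in BALB/c, against 8.73, 4.99 and 4.29 CPM in NOD.H-2b, and at 6M 0.0429, 0 and 0 CPM and 10.1, 5.74 and 7.38 CPM. All NOD.H-2b mice were above all BALB/c mice of their age. The counts summed over 3 mice were 2 in BALB/c against 140 in NOD.H-2b at 2M, a ratio of 60.6 with a 95% counting interval from 16.5 to 506. At 4M they were 7 and 1114, a ratio of 150 (72.6 to 374), and at 6M 4 and 1519, a ratio of 364 (142 to 1338). These intervals cover counting error alone and not the spread between mice. Its partner H2-Ob, outside the 10, was called at 4M and 6M (log2 fold change 6.07 and 7.78) and not at 2M (adjusted p = 0.0699), where NOD.H-2b replicate 1, at 0.263 CPM, lay within the BALB/c range. Without that mouse, and by DESeq2 with it, H2-Ob was called at 2M too (adjusted p = 1.11e-05 and 0.00453). H2-Eb2, the other of these genes, had 1, 15 and 3 counts in BALB/c at 2M, 4M and 6M and 188, 1388 and 2057 in NOD.H-2b, ratios of 163 (28.9 to 6467), 87.3 (52.7 to 156) and 657 (225 to 3191).

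**Figure D2:**
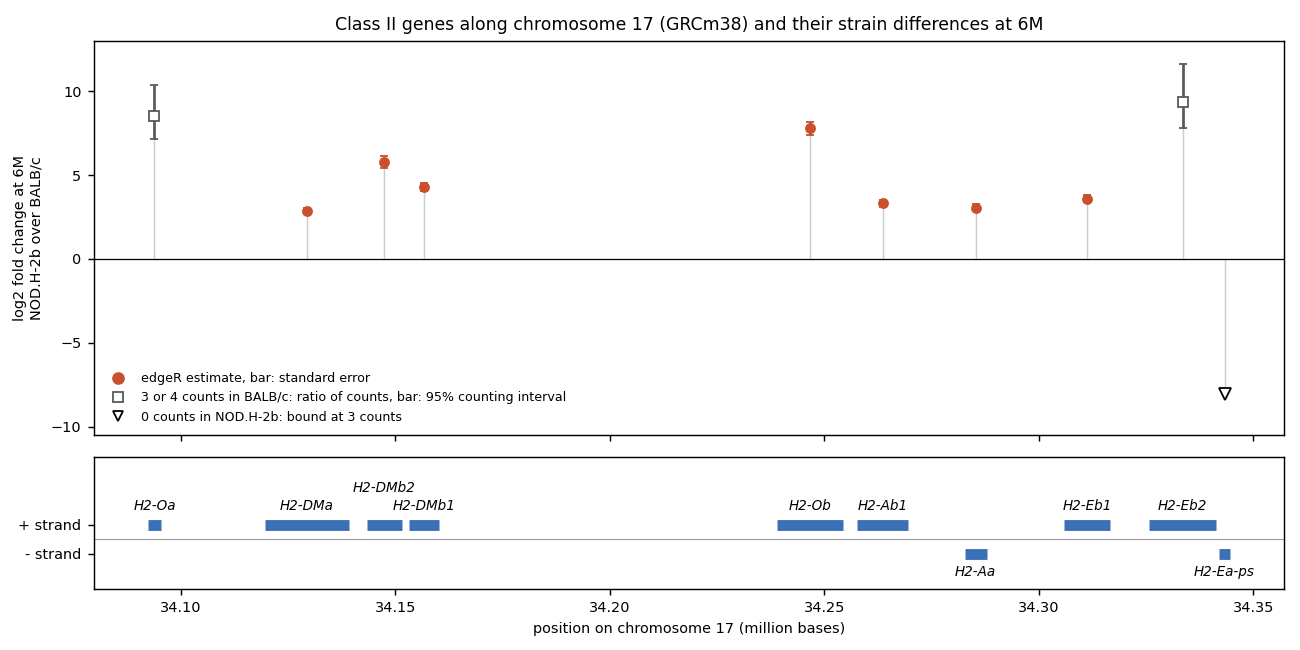
Class II genes along chromosome 17 (GRCm38, bars on their strand) and the log2 fold change of NOD.H-2b over BALB/c at 6M for each: circles are edgeR estimates with standard errors, open squares are ratios of counts with 95% counting intervals for genes with 3 or 4 counts in BALB/c, and the triangle is the bound for H2-Ea-ps. H2-Ea-ps at the right end lies below 0 and its neighbours lie above, with H2-DMa at 2.88 and H2-Ob at 7.78.

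The comparison of ages within a strain is free of the haplotype difference. In BALB/c none of the 9 genes tested was called between any ages by edgeR or DESeq2, and H2-Oa was too low to test. From 2M to 4M, where 2.07% of 16639 genes were called higher and 0.300% lower, the log2 fold changes of the 9 genes lay between 0.54 and 0.95, and 3 of them (H2-DMa, H2-DMb1 and H2-DMb2) had an unadjusted p under 0.05. From 4M to 6M, where 0.0180% of 16622 genes were called in each direction, they lay between -1.01 and -0.12, with 2 under an unadjusted 0.05, H2-DMb1 and H2-DMb2. From 2M to 6M, with 1.57% of 16579 genes called higher and 0.115% lower, they lay between -0.21 and 0.41, with H2-DMa the 1 gene under an unadjusted 0.05. Of all genes tested, 4416 from 2M to 4M, 2583 from 4M to 6M and 3511 from 2M to 6M had an unadjusted p under 0.05. BALB/c 4M replicate 3 had the highest value of the BALB/c mice in each of the 10 genes, for example 31.7 CPM of H2-Ea-ps against 14.8 and 16.4 in the other 4M mice. Its Ptprc, the CD45 gene of leukocytes, was at 23.7 CPM against 11.1 and 12.0.

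In NOD.H-2b mice class II genes were higher at 4M and 6M than at 2M. From 2M to 4M 8 of the 9 genes tested rose, where 5.97% of 17763 genes were called higher and 0.625% lower, and none fell. H2-Ea-ps, at 0, was not tested. Cd74 rose by 1.48 ± 0.31 (log2, SE), Ciita by 2.00 ± 0.41 and H2-Oa by 3.04 ± 0.65, while H2-DMb2, at 3.02 ± 0.80, missed the threshold (adjusted p = 0.0662, edgeR). From 2M to 6M all 9 tested rose, where 10.9% of 18008 genes were called higher and 1.55% lower, by 1.47 for H2-DMa at the least and 3.59 for H2-DMb2 at the most. From 4M to 6M none of the 9 was called, none had an unadjusted p under 0.05 and DESeq2 called none. Of 18026 genes 2490 had an unadjusted p under 0.05, 0.00555% were called higher and 0% lower. The log2 fold changes of the 9 lay between 0.16 and 0.61.

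These counts in NOD.H-2b depend on settings and on single mice. From 2M to 4M the count of 8 was 1 with no filter on low counts and 0 with the replicate number as a block, and from 2M to 6M the count of 9 was 7 and 1. From 2M to 4M the count of 8 was 0 without NOD.H-2b 2M replicate 3 and 1 without NOD.H-2b 4M replicate 1, 2 or 3. From 2M to 6M the count of 9 was 2 without NOD.H-2b 2M replicate 3, 4 without NOD.H-2b 6M replicate 1 and 5 without NOD.H-2b 6M replicate 3.

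Whether the change with age differed between strains was tested as an interaction, NOD.H-2b at 6M minus 2M less BALB/c at 6M minus 2M, in a fit of all 18 mice. Of the 10 genes 7 were called higher, where 3.60% of 19117 genes were, and none lower, where 1.50% were. The differences were 1.46 ± 0.45 for H2-Aa, 1.58 ± 0.43 for H2-Ab1, 1.59 ± 0.43 for Cd74, 1.07 ± 0.34 for H2-DMa, 2.15 ± 0.47 for H2-DMb1, 3.73 ± 0.99 for H2-DMb2 and 2.23 ± 0.62 for Ciita (log2, SE). The median was 1.59 over the 8 genes but H2-Ea-ps and H2-Oa, against -0.03 over all genes tested. H2-Eb1, at 1.46 ± 0.48, missed the threshold (adjusted p = 0.0552, edgeR), and neither H2-Oa, with few BALB/c counts, nor H2-Ea-ps, at 0 in NOD.H-2b, had a useful estimate. In the same test some markers of cells were called. These tests were not repeated with mice left out. Higher were 2 of 10 dendritic cell markers (Fscn1 and Zbtb46, list median 0.29), 1 of 10 T cell markers (Lat, 0.50) and 1 of 6 endothelial markers (Pecam1, 0.56). No macrophage marker was called, and Ptprc, at 1.40 ± 0.55, missed the threshold (adjusted p = 0.0999, edgeR). Several B and T cell markers too low to test within BALB/c had wide standard errors, such as 6.44 for Ms4a1 and 2.97 for Cd6. Of 8 plasma cell markers 1 was lower (Jchain, list median -0.20), as was 1 of 10 of gland epithelium (Mucl2, -0.62), and the B cell marker Fcer2a was higher. At FDR under 0.05 and below a 2-fold difference, 5 more epithelial markers (Epcam, Cdh1, Krt8, Krt18 and Ltf) and 1 of plasma cells (Derl3) were lower. So was the macrophage marker Mertk, at -0.56, while 2 endothelial markers (Cdh5 and Kdr) were higher. For the class II genes DESeq2 called 8 higher and none lower, and a difference in alignment that is constant within a strain cancels here. The count of 7 was 1 without BALB/c 2M replicate 1, BALB/c 2M replicate 2, BALB/c 6M replicate 1 or NOD.H-2b 6M replicate 1. It was 2 without NOD.H-2b 2M replicate 1 or NOD.H-2b 2M replicate 3, 3 without BALB/c 6M replicate 3, and 4 without BALB/c 2M replicate 3 or BALB/c 6M replicate 2.

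Ratios of counts within a mouse show how the balance among these genes differed between strains, free of library size. For 8 ratios, log2 of count plus 1 over count plus 1 was compared by a two-sided exact permutation test of strain within age over 8000 arrangements, whose smallest p is 0.00025, with p adjusted over the 8. Of these 6 passed an adjusted p of 0.05.

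Within the chains, the ratio of H2-Aa to Cd74 was -1.04, -0.86 and -0.89 in BALB/c against -1.05, -0.94 and -1.11 in NOD.H-2b at 2M, and -0.98, -0.81 and -0.84 against -1.11, -0.99 and -1.06 at 4M. Over the ages it was lower in NOD.H-2b by a mean log2 of -0.16 (permutation, adjusted p = 0.00233), with 8 of 9 NOD.H-2b mice below all BALB/c mice of their age. H2-Ab1 to Cd74 did not pass, at -0.00 (permutation, adjusted p = 0.915), so the alpha to beta ratio H2-Aa to H2-Ab1 was lower as well, at -0.16 (adjusted p = 0.00233, permutation, 8 of 9 mice below). H2-Eb1 to Cd74 was -1.92, -1.78 and -1.68 in BALB/c against -1.35, -1.31 and -1.38 in NOD.H-2b at 2M, and -1.87, -1.91 and -1.92 against -1.55, -1.65 and -1.57 at 6M. It was higher in NOD.H-2b by 0.32 (permutation, adjusted p = 0.0005), in 9 of 9 mice. For these 3 chains, haplotype alignment and expression cannot be told apart.

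Among the loading genes and the regulator, H2-Oa to H2-DMa was higher in NOD.H-2b by 4.11 (permutation, adjusted p = 0.0005, 9 of 9 mice), a value that depends on the pseudocount since BALB/c had few H2-Oa counts and was 5.90 with 0.1 in place of 1. H2-DMb2 to H2-DMb1 differed by -0.49 at 2M, 1.08 at 4M and 1.44 at 6M and, with a mean of 0.68, missed the threshold (permutation, adjusted p = 0.0626). Leaving out replicate 1 of every group took it to 0.83 (permutation, adjusted p = 0.0317). NOD.H-2b 2M replicate 1 had the lowest ratio, at -2.54, and the NOD.H-2b mice at 4M and 6M lay between 0.37 and 0.93, above every BALB/c mouse of those ages.

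Ciita to Cd74, a pair outside H2, was -4.06, -3.72 and -3.72 in BALB/c against -3.54, -3.22 and -3.40 in NOD.H-2b at 2M, and -4.15, -4.25 and -3.92 against -2.91, -3.10 and -3.03 at 6M. The regulator was thus higher relative to Cd74 in NOD.H-2b, by 0.87 (permutation, adjusted p = 0.0005), in 9 of 9 mice. Cd74 to Ptprc was 2.85, 2.75 and 2.72 in BALB/c against 1.53, 1.09 and 1.30 in NOD.H-2b at 2M, and 2.33, 2.24 and 2.26 against 0.96, 0.88 and 0.94 at 6M. Cd74 was thus lower relative to this leukocyte gene, by a mean log2 of -1.42 (permutation, adjusted p = 0.0005), in 9 of 9 NOD.H-2b mice.

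**Figure D3:**
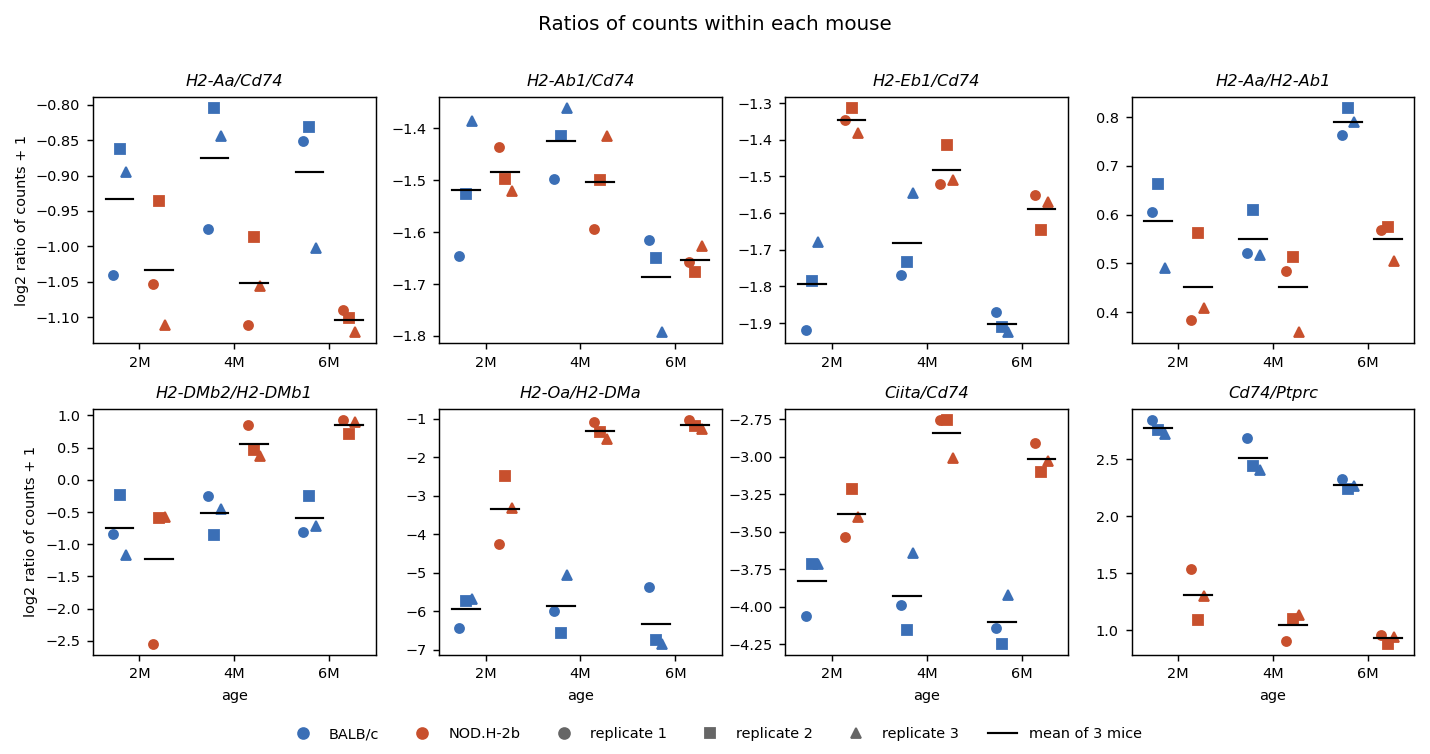
The 8 ratios in every mouse, as log2 of the ratio of counts plus 1, by age, with BALB/c in blue, NOD.H-2b in orange, a marker shape for each replicate number and a bar at the mean of 3 mice. All 9 NOD.H-2b mice lie above the BALB/c mice of their age for Ciita to Cd74 and below them for Cd74 to Ptprc, whose mean differences are 0.87 and -1.42.

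The genes whose pattern over the 6 group means was most like that of Cd74, among 11875 genes, were Ppp1r18, Nedd9, Stk10, H2-Q5 and Gbp4, with a root mean square log2 difference of 0.0825, 0.0833, 0.0840, 0.102 and 0.112. H2-Aa (0.0873) and H2-Ab1 (0.0938) were about as near, H2-DMa (0.167) and H2-Eb1 (0.186) less so. The nearest to Ciita were Dennd1c (0.0633), Lrmp (0.0696), Arhgap45 (0.135), Akna (0.154) and Inpp4b (0.164), and of the 10 genes H2-DMb1 was nearest (0.154), followed by H2-Eb1 (0.355) and Cd74 (0.472). These 6 means share the strain difference that most genes of leukocytes show here.

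Other genes of the pathway were taken from lists by role. The promoter factors that bind with Ciita (Rfx5, Rfxap, Rfxank, Nfya, Nfyb, Nfyc and Creb1) were not called at any age: 0 of 7 by edgeR and by DESeq2, with 3, 2 and 4 of them at an unadjusted p under 0.05 at 2M, 4M and 6M. Among all genes tested 8199 of 17200, 8819 of 17722 and 10562 of 17750 had such a p at these ages. Called higher were 12.0%, 15.6% and 18.8% of all genes tested, and called lower 3.76%, 4.72% and 6.03%. At such shares 0 of 7 does not set this list apart. At FDR under 0.05 and below a 2-fold change, Rfx5 and Rfxank were higher at each age, Rfxank by 0.94, 0.91 and 0.94, and Nfya and Creb1 at 6M. Their median log2 fold change was -0.05, 0.23 and 0.43, and without BALB/c 2M replicate 3 or NOD.H-2b 2M replicate 2 at 2M, or BALB/c 6M replicate 3 or NOD.H-2b 6M replicate 2 at 6M, 1 of the 7 was called higher. Creb1, the most abundant, had 36.2 ± 2.85 CPM in BALB/c, against 47.6 ± 1.94 CPM in NOD.H-2b mice at 6M (SD, n = 3). In the interaction 1 of the 7 was called, Nfya, a subunit of the Y box factor, at 1.11 ± 0.27. Its level was 5.40 CPM in BALB/c, against 4.32 CPM in NOD.H-2b mice at 2M, and 3.78 and 6.50 CPM at 6M.

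Of 9 genes for endosomal processing and class II turnover, 4 were higher in NOD.H-2b at 2M (Ctss, Ctsb, Lgmn and March1), 3 at 4M (Ctss, Lgmn and March1) and 5 at 6M (the 4 of 2M and Ifi30), and 0 were called lower by edgeR or DESeq2. Of all genes tested 12.0%, 15.6% and 18.8% were called higher. At FDR under 0.05 and below a 2-fold change, Ctsl was lower at 4M and 6M, and Ctsd and March8 at 6M. Higher on the same terms were Sppl2a at each age, Ctsl at 2M, Ifi30 at 2M and 4M and Ctsb at 4M. Ctss, the protease that trims the invariant chain, measured 5.91, 6.46 and 4.96 CPM in BALB/c, against 26.0, 41.9 and 36.4 CPM in NOD.H-2b mice at 2M, and 8.44, 9.33 and 7.97 CPM against 101, 69.2 and 75.8 CPM at 6M, without overlap. March1, the ligase that removes class II from the surface, had the largest change at 6M, 3.92 ± 0.39. Ctsl, the most abundant, had 138 ± 10.9 CPM in BALB/c, against 93.0 ± 3.90 CPM in NOD.H-2b mice at 6M (SD, n = 3) and did not reach a 2-fold change. The list's median log2 fold change was 0.56, 0.94 and 1.16.

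Between interferon gamma and Ciita, Irf1 and Socs1 were called higher in NOD.H-2b mice at each age, Ifngr2 at 2M and 6M, and Jak2 at 4M and 6M. Ifng itself was scarce: its mean was 0.00358 CPM in BALB/c, against 0.344 CPM in NOD.H-2b mice at 6M, and it was tested at that age alone, where it entered through its NOD.H-2b counts, so that its call was set by the filter. Jak1, the most abundant of those named, had 154 ± 3.30 CPM in BALB/c, against 166 ± 7.85 CPM in NOD.H-2b mice at 6M (SD, n = 3) and was not called.

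Genes that read class II or costimulate had medians of 3.64, 4.89 and 5.14. At 2M, 4M and 6M, 12.0%, 15.6% and 18.8% of all genes tested were called higher. The list had 5 of 6 tested higher at 2M (Cd4, Lag3, Cd80, Cd86 and Cd40) and 8 of 8 at 4M and 6M. Of these, 3 at 2M (Lag3, Cd80 and Cd40) and 5 at 4M and 6M (with Cd28 and Ctla4) were too low to test within BALB/c, so the filter largely set their call. Icosl, the most abundant, was at 7.40 ± 1.39 CPM in BALB/c, against 31.3 ± 6.40 CPM in NOD.H-2b mice at 6M (SD, n = 3), and its interaction with age was 1.61 ± 0.35, the 1 gene of the 8 called there. Ctla4, with the largest fitted change, was at 0 in BALB/c at 6M and at 0.830 ± 0.216 CPM in NOD.H-2b.

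Markers of cells that carry class II were compared between the strains, and no test of their joint change with class II was run. Of the B cell markers 4 could be tested at 2M, and 3 of these (Cd79a, Cd79b and Cd22) were higher in NOD.H-2b mice. The median over the 4 was 6.05, and 12.0% of all genes tested were called higher. The summed level of the list was 0.420, 0.808 and 0.141 CPM in BALB/c, against 1.81, 34.5 and 14.3 CPM in NOD.H-2b mice at 2M, 1.64, 1.32 and 2.91 CPM against 386, 210 and 176 CPM at 4M, and 1.43, 2.88 and 1.05 CPM against 528, 262 and 351 CPM at 6M. NOD.H-2b 2M replicate 1, lowest here, was also lowest of its group in the 9 class II genes it expressed, and NOD.H-2b 6M replicate 1, highest here, was highest in them. Cd22 was the most abundant marker, and Ms4a1, with the largest fitted change, was at 0.00358 CPM in BALB/c, against 46.9 CPM in NOD.H-2b mice at 6M. Both of these were too low to test within BALB/c and entered the tests through NOD.H-2b. At 2M Cd22 was no longer called without BALB/c 2M replicate 2 (adjusted p = 0.0522, edgeR) or BALB/c 2M replicate 3 (adjusted p = 0.0558). The part of B cells in the class II result was not tested.

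Dendritic cell markers were higher in 7, 7 and 8 of 10 at 2M, 4M and 6M, against 12.0%, 15.6% and 18.8% of all genes tested. Their medians were 2.80, 2.40 and 3.35. Batf3, called at each age, was too low to test within BALB/c and entered through its NOD.H-2b counts. Their sum was 8.87, 9.37 and 8.02 CPM in BALB/c, against 26.7, 41.3 and 34.5 CPM in NOD.H-2b mice at 2M, 12.8, 13.0 and 22.8 CPM against 87.8, 55.0 and 54.5 CPM at 4M, and 11.6, 13.1 and 10.1 CPM against 85.5, 66.2 and 75.6 CPM at 6M. Fscn1 was the most abundant and Ccr7, the homing receptor, changed most at 6M (5.47 ± 0.26). Macrophage markers were higher in 8, 7 and 8 of 10, with medians of 1.95, 1.70 and 1.99, Csf1r the most abundant and Fcgr1 the most changed at 6M (4.00 ± 0.36). The macrophage sum was 77.5, 78.4 and 60.6 CPM in BALB/c, against 184, 194 and 197 CPM in NOD.H-2b mice at 2M, 91.1, 96.0 and 128 CPM against 236, 231 and 235 CPM at 4M, and 83.1, 104 and 81.8 CPM against 287, 232 and 210 CPM at 6M. No marker of either list was at 0 in a strain, and BALB/c 4M replicate 3 was the highest BALB/c mouse in both sums. Csf1r was not called at 2M without BALB/c 2M replicate 3, at 0.99, and was called at 4M without BALB/c 4M replicate 3, at 1.00. Their part in the class II result was not tested.

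T cell markers, of cells that read class II, were higher in 10 of 10 at each age, with medians of 5.23, 4.74 and 6.12, and Lck was the most abundant. Of the 10, 6 (Cd3d, Cd2, Cd5, Cd6, Cd8a and Cd27) were too low to test between ages of BALB/c and entered through their NOD.H-2b counts, so the call of these was largely set by the filter. Their sum was 0.764, 0.700 and 0.406 CPM in BALB/c, against 7.81, 31.1 and 18.6 CPM in NOD.H-2b mice at 2M, 1.90, 1.36 and 6.00 CPM against 118, 70.2 and 67.2 CPM at 4M, and 1.26, 1.98 and 1.03 CPM against 99.5, 73.0 and 95.4 CPM at 6M. Plasma cell markers, of cells that have shut down class II, were higher in 2 of 8 at 2M (Jchain and Irf4), 5 at 4M (Jchain, Mzb1, Tnfrsf17, Prdm1 and Irf4) and 3 at 6M (Jchain, Mzb1 and Irf4), with medians of 1.24, 1.35 and 0.90. Of all genes tested 12.0%, 15.6% and 18.8% were called higher. Without NOD.H-2b 2M replicate 1 the count of plasma cell markers higher at 2M was 4. At FDR under 0.05 and below a 2-fold change, Derl3 was lower at 2M and 4M (-0.38 and -0.53) and Prdm1 was higher at 2M. Xbp1, the most abundant and also high in secretory epithelium, was at 370 ± 29.8 CPM in BALB/c, against 288 ± 23.3 CPM in NOD.H-2b mice at 6M (SD, n = 3), and Irf4 changed most (2.75 ± 0.13). The plasma cell sum overlapped at 2M, at 594 to 614 CPM in BALB/c and 588 to 701 CPM for NOD.H-2b, and did not at 4M (696 to 801 and 969 to 1209 CPM) or 6M (723 to 843 and 1014 to 1128 CPM). The part of these cells was not tested.

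Gland epithelium was present in every library, with a summed level of 10 markers from 12983 to 52181 CPM in BALB/c, against from 7253 to 15258 CPM in NOD.H-2b. Of these 10, 0 were higher and 2 lower at 2M and 4M (Car6 and Scgb2a2), and 3 lower at 6M (with Mucl2), with medians of 0.41, -0.14 and -0.37. By age, 12.0%, 15.6% and 18.8% of all genes tested were called higher and 3.76%, 4.72% and 6.03% lower. Scgb2a2 was the most abundant, and Car6 changed most at 6M (-3.58 ± 0.17). Scgb2a2 was not called at 2M without NOD.H-2b 2M replicate 1 (adjusted p = 0.0508, edgeR), nor Car6 at 4M without BALB/c 4M replicate 1, BALB/c 4M replicate 2, NOD.H-2b 4M replicate 1 or NOD.H-2b 4M replicate 3 (adjusted p from 0.0559 to 0.0769). At FDR under 0.05 and below a 2-fold change, 6 other markers were higher at 2M (Epcam, Cdh1, Krt8, Krt7, Ltf and Mucl2), 2 were lower at 4M (Krt18 and Mucl2) and 3 were lower at 6M (Krt8, Krt18 and Aqp5). The part of epithelial levels in the class II result was not tested.

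Markers of neighbouring tissue were low or mixed. For comparison, 12.0%, 15.6% and 18.8% of all genes tested were called higher at 2M, 4M and 6M, and 3.76%, 4.72% and 6.03% lower. Skeletal muscle markers summed to 0.383 to 1.57 CPM in BALB/c, against 0.230 to 0.572 CPM in NOD.H-2b, with Ckm, the most abundant, lower at each age, Mylpf higher at 4M and Myh4 at 0 in BALB/c. Mylpf was too low to test within BALB/c and entered through its NOD.H-2b counts, leaving out any 1 mouse ended its call, and DESeq2 did not make it. At 6M no muscle marker was called higher by edgeR, but 1 was by DESeq2 and without BALB/c 6M replicate 1, BALB/c 6M replicate 2, BALB/c 6M replicate 3 or NOD.H-2b 6M replicate 2. Adipocyte markers, with Fabp4 the most abundant, summed to 2.77 to 6.22 CPM and 1.63 to 5.83 CPM, and 0 were called at any age by edgeR or DESeq2, with 0, 1 and 0 at an unadjusted p under 0.05. Single mice mattered here too: 1 was lower at 2M without NOD.H-2b 2M replicate 1 and at 6M without NOD.H-2b 6M replicate 2, and 1 was higher at 2M without NOD.H-2b 2M replicate 2. Salivary gland markers, led by Prol1, summed to 5.35 to 12.5 CPM and 1.88 to 13.2 CPM, with Dcpp1 at 0 in BALB/c, 0 called at 2M by edgeR or DESeq2 (0 at an unadjusted p under 0.05), Smr2 and Amy1 lower at 4M and Amy1 lower at 6M. At 2M 1 was lower without NOD.H-2b 2M replicate 2, and Amy1 was not called at 6M without BALB/c 6M replicate 2 or NOD.H-2b 6M replicate 3.

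Blood and vessel markers were also followed. Of 5 erythroid markers, Hba-a1 and Hbb-bt were higher at 2M and 4M, Hba-a1 at 6M, and Hba-a2 was lower at each age, at 2.24 CPM in BALB/c, against 0.0175 CPM in NOD.H-2b mice at 6M. Hbb-bs was the most abundant, and the sum was 26.2 to 58.8 CPM in BALB/c, against 32.7 to 91.5 CPM in NOD.H-2b mice. At 6M the count of 1 higher became 0 without BALB/c 6M replicate 1, BALB/c 6M replicate 2, NOD.H-2b 6M replicate 1 or NOD.H-2b 6M replicate 2, and 2 without BALB/c 6M replicate 3 or NOD.H-2b 6M replicate 3. Of 6 endothelial markers 1 was higher at 2M (Vwf), 1 at 4M (Pecam1) and both at 6M, against 12.0%, 15.6% and 18.8% of all genes tested (1.00 ± 0.08 for Vwf, the most abundant, and 2.27 ± 0.16 for Pecam1), and the sums were 62.5 to 80.5 CPM in BALB/c, against 102 to 135 CPM in NOD.H-2b. At FDR under 0.05 without reaching a 2-fold change, Kdr was lower at 2M, Pecam1 was higher at 2M and Vwf was higher at 4M. Vwf was not called at 6M without BALB/c 6M replicate 1 or NOD.H-2b 6M replicate 2, at 0.97 and 0.96. Ptprc was higher at each age, by 3.22, 3.80 and 4.62.

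Promoters of class II genes were searched for the letters of the X box core, AGCAAC, and the Y box, CTGATTGG, on both strands, in windows from 250 bases before to 50 after the start. The RefSeq (GRCm38.p6) promoters used here covered H2-Aa, H2-Eb1, H2-DMa, H2-DMb1, H2-DMb2 and H2-Oa, and also H2-Ob and H2-Eb2. They included none for H2-Ab1, H2-Ea-ps, Cd74 or Ciita, so these genes were not searched. H2-Eb1, H2-Oa and H2-Eb2 held both motifs, H2-Aa the Y box and H2-Ob the X box core. Of 32544 promoters 14.8% held AGCAAC, 4.07% CTGATTGG and 0.682% both. The shorter TGATTGG, which is contained in the Y box letters and was chosen after the sequences were seen, was also in H2-DMb1, H2-DMb2 and H2-Ob and in 7.8% of all promoters. The stretches that end with the Y box, or in H2-Ob with TGATTGG alone, are shown for the chains H2-Eb1 and H2-Aa, for both chains of H2-O and for H2-Eb2, 5′ to 3′ on the strand of the gene, with the motifs in capitals, at chr17:34305756-34305812 (plus), chr17:34287867-34287923 (minus), chr17:34092284-34092340 (plus), chr17:34238796-34238852 (plus) and chr17:34325523-34325579 (plus).
H2-Eb1: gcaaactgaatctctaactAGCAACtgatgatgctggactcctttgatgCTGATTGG
H2-Aa: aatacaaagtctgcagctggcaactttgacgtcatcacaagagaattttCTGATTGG
H2-Oa: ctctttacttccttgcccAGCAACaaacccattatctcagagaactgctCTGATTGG
H2-Ob: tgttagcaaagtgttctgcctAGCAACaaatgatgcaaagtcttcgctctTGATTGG
H2-Eb2: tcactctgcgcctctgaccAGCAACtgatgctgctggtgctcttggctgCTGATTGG
Between the motifs lay 24 bases in H2-Eb1 and H2-Eb2, 25 in H2-Oa and, before the shorter letters, 23 in H2-Ob. In H2-DMb1 and H2-DMb2 the shorter letters lie within the annotated genes, and no stretch is shown. A match is a description of letters and not a site of binding.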

How the data were processed

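RNA of whole LGs went through ribosomal depletion before paired-end sequencing. The authors deposited a raw count for every Ensembl gene, from reads trimmed by cutadapt, placed on GRCm38 by STAR and assigned by HTSeq. Versions, annotation release, strand setting and the handling of reads that fit more than 1 place are not given in the sources used here. On the opposite strand, exons of Brd2 overlap H2-DMa, those of BC051537 overlap H2-Oa and those of Dexi overlap Ciita, so counts of these genes could hold reads of the neighbour. The deposited log2 table is a rescaling of the same counts and was not used. GENCODE M21 supplied names and positions.

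Members and lists were chosen with earlier results of these data known. The rule for named genes takes all 10 class II genes and, from each list, the genes called where 5 or fewer were, the most abundant, and the called gene with the largest change at 6M, and the 5 genes nearest Cd74 and Ciita (average log2 CPM of at least 1, pseudocount 0.01 CPM). Some other list genes are named, after their values were seen, because they passed FDR alone, entered the test through NOD.H-2b or were called in the interaction. Not every gene that passed FDR alone is named. For the list from interferon gamma to Ciita, and for B cell markers at 4M, 6M and in the interaction, counts and medians are not reported.

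Each comparison used its own 6 mice, or all 18 for the interaction, in R 4.3.3 with edgeR 4.0.16 (TMM, filterByExpr, robust quasi-likelihood test, Benjamini-Hochberg over all genes tested) and limma 3.58.1. Standard errors were derived from the fold change and its F statistic. Alternatives were DESeq2 1.42.0 size factors and Wald test, no filter, at least 10 counts in every sample, 1 fit of all 18 mice (for the interaction, 12 mice of 2M and 6M), the replicate number as a block, another pseudocount of 0.1 for ratios, and leaving out each mouse. Ratios, figures and summaries used Python 3.11.15 with NumPy 2.4.6, SciPy 1.17.1, pandas 2.3.3 and matplotlib 3.10.9. The steps were tested on simulated data. With library sizes scaled by TMM, 3 counts are 0.0392 to 0.0601 CPM in NOD.H-2b, and lower levels were not measurable in 1 mouse.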

Additional observations from a re-analysis of the deposited data

Results flagged for a closer look

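Of the class II genes, 7 changed with age from 2M to 6M by a different amount in the strains, as tested by the interaction in edgeR: log2 differences, NOD.H-2b minus BALB/c, were 1.46 for H2-Aa, 1.58 for H2-Ab1, 1.59 for Cd74, 1.07 for H2-DMa, 2.15 for H2-DMb1, 3.73 for H2-DMb2 and 2.23 for Ciita. Of all genes tested 3.60% were called higher and 1.50% lower. In the pathway lists Nfya, at 1.11, and Icosl, at 1.61, differed in the same test. In each of these 9 genes the change was more positive in NOD.H-2b, and the count of class II genes depends on single mice, from 1 to 8 called when 1 mouse is left out. Of the marker lists 2 of 10 dendritic cell markers, 1 of 10 T cell markers, 1 of 6 endothelial markers and the B cell marker Fcer2a were called higher in this test, and 1 of 8 plasma cell markers and 1 of 10 of gland epithelium lower. At FDR under 0.05 and below a 2-fold difference, Epcam, Cdh1, Krt8, Krt18, Ltf, Derl3 and Mertk were lower and Cdh5 and Kdr were higher.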

How the results depend on the processing

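Of 269 alternative counts of class II genes 246 were within 1.5 times the count reported, and of 1257 alternative values 1098 kept their direction and side of the threshold, 134 lost the call, 12 gained it and 13 changed sign. At least 10 counts in every sample removed H2-Ea-ps, so the count lower was 0 at 2M, 4M and 6M. From 2M to 4M in NOD.H-2b the count higher was 1 with no filter and 0 with the replicate block, and from 2M to 6M it was 1 with the block. Over 45 pairs of same-numbered mice from different groups the correlation ranged from -0.421 to 0.432 with a median of 0.0352. In 19 of the 45 the best match in the other group had the same number. Whether replicate numbers pair the mice in some groups is thus not settled. With 1 mouse left out, counts higher ranged from 5 to 9 between strains at 2M, 0 to 9 from 2M to 4M and 2 to 9 from 2M to 6M in NOD.H-2b, and 1 to 8 in the interaction; the cause was not tested. Where an arm fell to 2 mice the test has fewer samples. The ratio H2-DMb2 to H2-DMb1 ranged from 0.51 to 0.83 (adjusted p from 0.0317 to 0.381, exact permutation) and H2-Ab1 to Cd74 from -0.0175 to 0.0078, a change of sign. Signs also changed among uncalled log2 fold changes. From 4M to 6M in BALB/c H2-DMa ranged from -0.30 to 0.16. From 2M to 6M in BALB/c H2-Ab1 ranged from -0.0690 to 0.13, H2-Ea-ps from -0.0368 to 0.14, H2-DMb2 from -0.30 to 0.18 and Ciita from -0.15 to 0.0752. From 4M to 6M in NOD.H-2b H2-Ab1 ranged from -0.0275 to 0.37, H2-Eb1 from -0.0085 to 0.43 and Ciita from -0.13 to 0.42. Of the other lists, 1145 of 1224 counts were within 1.5 times and 548 of 564 values of named genes kept their call. No normalization moved the median of all genes by over 0.1.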
